A study of Homo sapiens with 6 samples.

Results

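The MAGE genes and PRAME were followed in K562 cells, an established human leukaemia line with erythroid and megakaryocytic features. Members were chosen by symbol alone: every gene named MAGE with a letter from A to L and a number, together with MAGEL2, NDN and PRAME. This gave 40 of the 60609 genes listed. Of these, 29 were type I genes (15 MAGEA, 11 MAGEB and 3 MAGEC), 10 were type II genes (4 MAGED, 2 MAGEE, and MAGEF1, MAGEH1, MAGEL2 and NDN), and the last was PRAME. Poly(A) RNA-seq was available for 3 WT and 3 Delta-TRRAP libraries. In both groups the endogenous EP400, which is the ATPase of TIP60, carried a degradation tag (EP400-dTAG) on both alleles and was removed with 500 nM dTAGV-1 for 24 h. WT cells expressed exogenous wild-type EP400 from the AAVS1 safe-harbour site, and Delta-TRRAP cells expressed EP400 without the part that holds the SANT and HD domains, where TRRAP attaches. The study describes a single clone per complemented line, so clone and genotype cannot be told apart. The study calls the 3 libraries of a group biological replicates of that line, and p-values measure the spread between them, not between clones.

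MAGE proteins share a MAGE homology domain, through which many of them bind E3 ubiquitin ligases of the RING family and alter what those ligases act on. Type I genes lie on the X chromosome, are normally active in the germline and are silent in most adult tissues, but are often switched on in tumours, which gave them the name cancer-testis antigens. Their silence in somatic cells is kept in large part by DNA methylation of CpG-containing promoters. Type II genes are expressed in many tissues. PRAME is an unrelated cancer-testis antigen, a leucine-rich repeat protein that serves as a substrate receptor of a CUL2 ligase.

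Stretches upstream of transcription start sites are shown for 4 members that mark the range of the results: the steady MAGEA3, the rising MAGEC1 and MAGEA9B, and NDN, the member with the largest fold change. Each is the 250 bases before the RefSeq start on GRCh38.p14, written 5′ to 3′ on the strand of the gene, with every CpG in capitals. The MAGEA3 stretch, at chrX:152698544-152698793 on the + strand, holds 15 CpG and runs into the first bases of the gene as GENCODE draws it. The MAGEC1 stretch, at chrX:141903644-141903893 on the + strand, holds 11. The MAGEA9B stretch, at chrX:149587460-149587709 on the - strand, holds 7. The NDN stretch, at chr15:23687306-23687555 on the - strand, holds 30.
MAGEA3: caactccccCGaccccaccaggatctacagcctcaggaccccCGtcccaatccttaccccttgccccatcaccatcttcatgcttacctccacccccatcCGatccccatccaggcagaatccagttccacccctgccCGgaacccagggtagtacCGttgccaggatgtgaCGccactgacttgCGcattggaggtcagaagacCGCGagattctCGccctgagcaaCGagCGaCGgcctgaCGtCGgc
MAGEC1: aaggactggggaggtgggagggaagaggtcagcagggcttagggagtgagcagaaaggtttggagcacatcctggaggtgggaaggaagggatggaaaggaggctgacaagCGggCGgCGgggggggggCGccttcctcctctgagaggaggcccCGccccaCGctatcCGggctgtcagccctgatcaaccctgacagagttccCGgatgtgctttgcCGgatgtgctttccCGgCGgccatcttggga
MAGEA9B: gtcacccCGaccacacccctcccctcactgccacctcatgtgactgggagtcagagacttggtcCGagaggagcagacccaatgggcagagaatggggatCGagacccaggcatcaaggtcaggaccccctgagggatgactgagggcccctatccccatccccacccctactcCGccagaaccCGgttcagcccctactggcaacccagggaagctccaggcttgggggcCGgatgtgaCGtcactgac
NDN: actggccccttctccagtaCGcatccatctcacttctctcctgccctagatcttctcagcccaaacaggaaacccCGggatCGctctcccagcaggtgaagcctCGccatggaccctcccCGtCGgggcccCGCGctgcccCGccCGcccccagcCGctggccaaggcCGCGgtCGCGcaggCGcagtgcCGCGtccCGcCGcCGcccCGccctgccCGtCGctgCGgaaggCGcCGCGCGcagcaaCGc

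The RefSeq table held 46 start sites for 33 of the 40 members. The type I stretches had a median of 8 CpG over 31 start sites and the type II stretches 12 over 12 start sites, against 11 over all 35116 promoters in the table. Within type I, the 12 start sites of 11 genes called higher had a median of 7.5 CpG, with a range of 1 to 18. The 15 start sites of only 8 genes tested and not called had a median of 11, with a range of 1 to 15. These ranges overlapped almost fully. MAGEA3 and MAGEA6 were identical over all 250 bases, as were MAGEA9 and MAGEA9B. The motif TTCCGG, searched on both strands, was found at 4 of the 31 type I and 1 of the 12 type II start sites, and in 14.5% of all promoters. CACGTG, which reads the same on both strands, was found at none of them and in 6.34% of all promoters.

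Libraries held 35076835 to 42616061 counts in genes. Normalized counts are counts divided by the relative effective library size, and edgeR's quasi-likelihood test was applied to genes whose mean over the 6 libraries reached 5. Calls needed both a 2-fold change and an adjusted p (Benjamini-Hochberg) no higher than 0.01, and log2 fold changes are Delta-TRRAP over WT with the standard error. Over all 19114 tested genes the log2 fold change had a median of 0.03, or 0.16 where libraries were scaled by size alone. Erythroid and megakaryocyte markers, which define K562, were abundant in both groups as a sum, though not each of them. Of 15 tested, 4 were called higher and 2 lower. The largest log2 fold changes were 3.75 ± 0.06 for ALAS2, 2.89 ± 0.09 for HBZ, -2.89 ± 0.10 for ITGA2B and 2.08 ± 0.29 for HBE1. Normalized counts summed over the list ranged from 241112 to 243906 in WT libraries, against 180807 to 191042 in Delta-TRRAP libraries. The transferrin receptor gene TFRC, named after its values were seen, held most of that sum. Without it the sum was 49294 to 51789 across WT libraries, against 95024 to 97532 across Delta-TRRAP libraries. The median log2 fold change was 0.52 over the 15 tested genes and 0.61 over the 14 without TFRC. Lymphoid markers summed to 540 to 566 and 488 to 524, with 1 of 6 tested genes higher and 1 lower. Fibroblast markers summed to 1339 to 1500 and 1751 to 2080, with 3 of 6 higher and none lower. Over all tested genes, 16.5% were called higher and 6.08% lower. Of the tested markers, 3 fibroblast and 1 lymphoid had a WT mean under 5, and 74.8% of all such tested genes were called higher. The fibroblast markers LUM and PDGFRA, the B cell marker MS4A1 and the platelet marker GP9 were at 0 in all libraries, while the collagen gene COL1A2 had raw counts of 1, 4 and 0 in WT and 887, 947 and 788 in Delta-TRRAP. The part of these shifts in the results on the MAGE genes was not tested.

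Type I MAGE transcripts were more abundant in Delta-TRRAP cells, while the most abundant MAGEA genes hardly moved. Of the 40 members, 35 had a count and 28 were tested. Among the 21 tested type I genes, 12 were called higher and none lower, whereas 16.5% of all tested genes were called higher and 6.08% lower. The median log2 fold change of the 21 genes was 1.56, with a range of -0.14 to 4.85. At an unadjusted p of 0.05, 16 type I genes were higher and none lower. The share of all tested genes at that threshold was not computed, but 58.3% passed an adjusted p of 0.01 in either direction. DESeq2 and limma-voom also called 12 type I genes higher and none lower. Of the 6 tested type II genes, 2 were called higher and none lower, with a median of 0.48 and a range of -0.05 to 7.73. The difference between the types was not tested.

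Low counts weigh on these numbers. Of the 7 tested type I genes with a WT mean under 5, 6 were called higher, but such genes passed the filter largely through the Delta-TRRAP libraries, and 74.8% of all tested genes of that kind were called higher. Of the 14 type I genes with a WT mean of 5 or more, 6 were called higher. The share of all tested genes with a WT mean of 5 or more was not computed. At any WT mean it was 16.5%, which includes the genes under 5 and their 74.8%. By mean over the 6 libraries, 8 of 11 type I genes under 100 normalized counts were called higher, against 30.8% of all such genes, 2 of 2 between 100 and 1000, against 13.8%, and 2 of 8 at 1000 or more, against 2.41%. The class under 100 includes the 7 type I genes with a WT mean under 5. MAGEC1, with a WT mean of 569, is in the class of 1000 or more through its Delta-TRRAP libraries. By WT mean, 1 of 7 type I genes at 1000 or more was called higher. The share of all tested genes with such a WT mean was not computed. Among X-linked genes of any function, 19.0% were called higher and 5.36% lower. Of the 25 tested X-linked members 13 were called higher, but these include the 6 type I genes with a WT mean under 5. The share of X-linked genes by WT mean was not computed. The plot of WT level against fold change places the members among all tested genes.

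**Figure D1:**
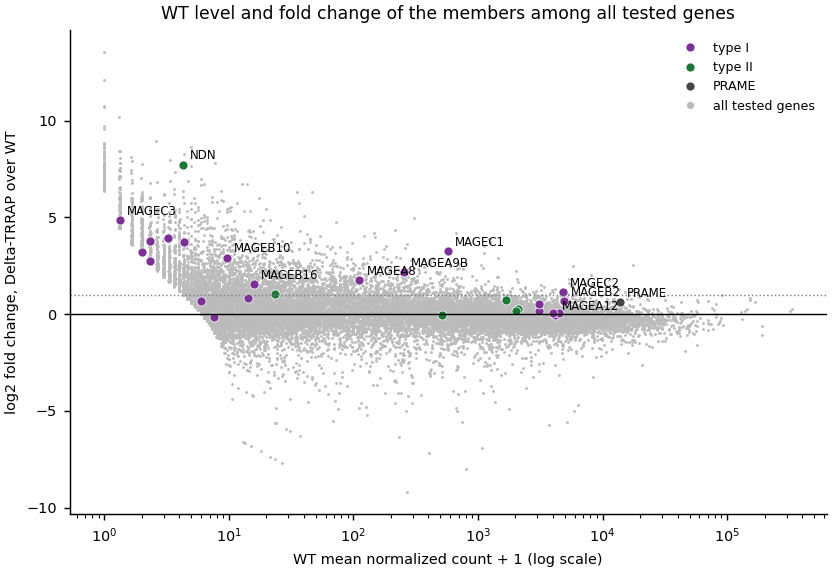
WT mean normalized count plus 1 (log axis) against log2 fold change of Delta-TRRAP over WT for all 19114 tested genes (grey) and the tested members (coloured by type), with the dotted line at a fold change of 2. MAGEC1 and MAGEC2 stand above the line at high levels, while MAGEA12 lies near 0.

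The MAGEC genes rose together. MAGEC1, a large antigen with repeated sequence outside its MAGE domain, had 501, 578 and 629 normalized counts in WT and 5289, 5720 and 5368 in Delta-TRRAP. All Delta-TRRAP libraries lay far above all WT libraries, with a log2 fold change of 3.26 ± 0.07 (adjusted p = 1.61e-14, edgeR). MAGEC2, which binds TRIM28, had 4873, 4788 and 4729 normalized counts in WT and 10724, 10473 and 10508 in Delta-TRRAP, a log2 fold change of 1.14 ± 0.05 (adjusted p = 1.68e-11, edgeR). It became the most abundant type I transcript in Delta-TRRAP cells.

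MAGEC3 was nearly absent from WT, with raw counts of 1, 0 and 0, and had 9, 14 and 16 in Delta-TRRAP. The ratio of summed counts, corrected for library size, was 39.3 with an exact 95% interval of 6.65 to 1591, which covers counting error only. The fitted log2 fold change of 4.85 ± 0.74 became 6.72 without WT replicate 1, which holds the single WT count. Summed over the 3 genes, MAGEC reads made up 18.2% ± 0.322 (SD, n = 3) of type I normalized counts in WT and 34.6% ± 1.27 in Delta-TRRAP. The MAGEC sum was 5366 ± 8.20 and 16041 ± 158 normalized counts. The MAGEA share was 54.6% ± 0.659 in WT and 38.6% ± 0.617 in Delta-TRRAP, although the MAGEA sum was not lower, at 16096 ± 367 and 17871 ± 756 normalized counts. The MAGEB share was 27.1% ± 0.728 and 26.8% ± 0.659, with sums of 7995 ± 305 and 12423 ± 630.

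**Figure D2:**
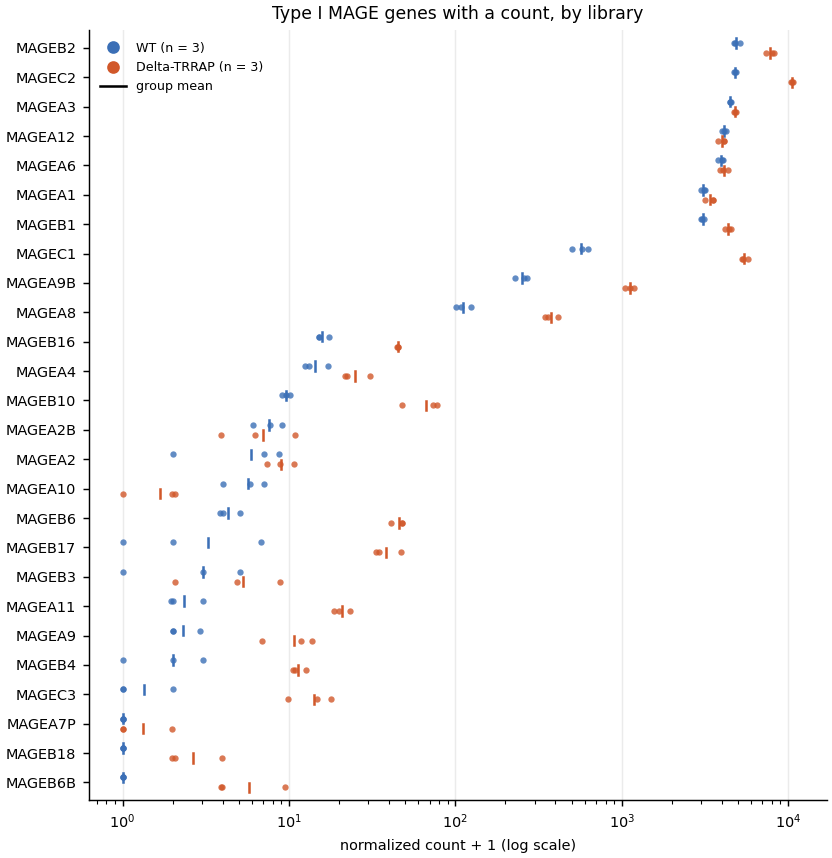
Normalized count plus 1 (log axis) of each type I gene with a count, in the 3 WT (blue) and 3 Delta-TRRAP (orange) libraries, with vertical marks at group means. The groups lie apart for MAGEC1, MAGEA9B and MAGEA8 and on top of each other for MAGEA12 and MAGEA6.

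MAGEA genes split in 2. MAGEA3 and MAGEA6, near-identical genes whose proteins act with TRIM28 on the energy sensor AMPK, were abundant in both groups. MAGEA3 had 4563, 4502 and 4453 normalized counts in WT and 4854, 4711 and 4776 in Delta-TRRAP. The groups did not overlap, but the log2 fold change was 0.09 with a 95% interval of -0.02 to 0.19 (adjusted p = 0.122, edgeR). MAGEA6 had 4027, 4090 and 3798 against 4094, 3876 and 4360 normalized counts, and the groups overlapped. Its log2 fold change was 0.05 ± 0.06. Of the exon windows of MAGEA3 and MAGEA6, 43.5% and 40.6% occur once in the genome. MAGEA12 was 4132 ± 122 in WT and 4005 ± 197 in Delta-TRRAP (SD, n = 3), a log2 fold change of -0.05 with a 95% interval of -0.16 to 0.07, which turned to 0.09 with libraries scaled by size alone. MAGEA1, the first member of the family to be known as a tumour antigen, was 3092 ± 73.3 and 3413 ± 198, with a log2 fold change of 0.14 ± 0.05 (adjusted p = 0.0289, edgeR).

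The other MAGEA genes with reads were less abundant. MAGEA8 had 107, 124 and 99.7 normalized counts in WT and 361, 347 and 415 in Delta-TRRAP, and rose by a log2 fold change of 1.76 ± 0.11 (adjusted p = 1.37e-09, edgeR). MAGEA9B had 258, 228 and 269 against 1124, 1051 and 1185, a log2 fold change of 2.15 ± 0.08 (adjusted p = 2.35e-12, edgeR). In both genes the groups lay well apart. MAGEA9, the copy of MAGEA9B in inverted orientation, had only 1, 2 and 1 raw counts in WT and 11, 6 and 12 in Delta-TRRAP. Of its 50-base exon windows 6.18% occur once in the genome, and of those of MAGEA9B 5.95%, so the split of reads between the copies is uncertain. MAGEA11, a coregulator of the androgen receptor, went from raw counts of 2, 1 and 1 to 18, 23 and 18 (log2 fold change 3.77 ± 0.46).

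MAGEA4 had a log2 fold change of 0.83 ± 0.28 from a WT mean of 13.3 normalized counts and was not called. MAGEA2 and MAGEA2B, whose exon windows all occur elsewhere in the genome, had 0.68 ± 0.51 and -0.14 ± 0.48. The sign for MAGEA2B changed when single libraries were left out, up to 0.20. MAGEA10 had too few reads to be tested, with raw counts of 3, 5 and 6 in WT and 1, 0 and 1 in Delta-TRRAP. It was the only member with a count whose Delta-TRRAP libraries all lay below its WT libraries, and 16.2% of its exon bases are shared with another gene on the same strand. MAGEA7P, a pseudogene, had 1 count in all, and MAGEA13P and MAGEA5 had none. Of the MAGEA5 exon bases, 58.1% are shared with other genes on the same strand, so its 0 is not read as absence of its transcript.

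All 7 tested MAGEB genes passed an adjusted p of 0.01, as did 58.3% of all tested genes. Of all tested genes 16.5% were called higher, and 5 of the 7 MAGEB genes also passed the fold threshold. The most abundant did not reach it. MAGEB2 had 4750, 5178 and 4773 normalized counts in WT and 7967, 7348 and 8222 in Delta-TRRAP, and MAGEB1 had 3056, 3135 and 2995 against 4405, 4155 and 4535. The groups were apart in both, with log2 fold changes of 0.68 ± 0.06 and 0.51 ± 0.05 (adjusted p = 4.94e-08 and 3.55e-07, edgeR).

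The MAGEB genes that were called started low, and MAGEB6, MAGEB17 and MAGEB4 had WT means under 5. Such genes passed the filter largely through the Delta-TRRAP libraries, and 74.8% of all tested genes of that kind were called higher. This leaves MAGEB16 and MAGEB10 as the calls from genes with a WT mean of 5 or more. MAGEB16 had 14.2, 16.3 and 14.2 normalized counts in WT and 44.1, 43.9 and 44.4 in Delta-TRRAP, a log2 fold change of 1.56 ± 0.22 (adjusted p = 1.21e-05, edgeR). MAGEB10 had 8.11, 8.63 and 9.16 against 72.6, 77.0 and 46.5, with a log2 fold change of 2.91 ± 0.28. MAGEB6 had raw counts of 3, 3 and 4 against 48, 48 and 38, with 3.70 ± 0.31. No Delta-TRRAP library of these genes came near a WT library. MAGEB17 went from raw counts of 0, 6 and 1 to 47, 33 and 32 (log2 fold change 3.94 ± 0.48). WT replicate 2 held most of its WT counts, and the log2 fold change was 5.88 without that library. MAGEB4 had 2, 0 and 1 against 10, 12 and 9, a ratio of 10.4 with an exact 95% interval of 3.25 to 53.2, and 4.02% of its exon bases are shared with a gene on the same strand. Its fitted log2 fold change of 3.23 ± 0.61 became 4.08 without WT replicate 1 and 2.66 without WT replicate 2.

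Genes of the MAGEB group below the filter had few reads. MAGEB6B was at 0 in all WT libraries and had 3, 3 and 8 raw counts in Delta-TRRAP, at least 1.59-fold higher when WT is set at the limit of 3 counts per library that a count of 0 allows. MAGEB18 had 0 in WT and 3, 1 and 1 in Delta-TRRAP. MAGEB3 had 2, 0 and 4 against 8, 4 and 1, and its groups overlapped. MAGEB5 had no counts, which at this depth shows only that it was not detected.

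Few genes carried the type I total. Summed normalized counts were 29457 ± 547 in WT and 46334 ± 1231 in Delta-TRRAP (SD, n = 3). The 8 most abundant genes (MAGEA1, MAGEA3, MAGEA6, MAGEA12, MAGEB1, MAGEB2, MAGEC1 and MAGEC2) held 98.6% ± 0.0574 of the sum in WT and 96.1% ± 0.101 in Delta-TRRAP. Normalized counts per kilobase of exon put MAGEB2 first among type I genes in WT, at 3049, and MAGEC2 first in Delta-TRRAP, at 5300.

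**Figure D3:**
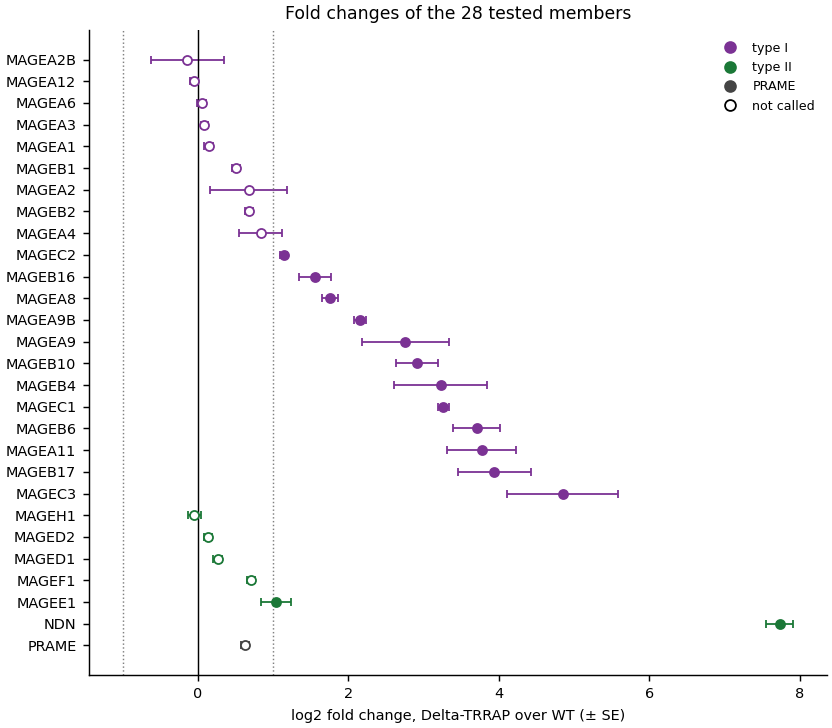
Log2 fold change of Delta-TRRAP over WT with its standard error for the 28 tested members by type, filled where called, with dotted lines at a fold change of 2. Type I genes range from -0.14 to 4.85, and NDN stands alone at 7.73 among the type II genes.

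Of the 6 tested type II genes, 4 passed an adjusted p of 0.01, all higher, where 58.3% of all tested genes passed in either direction. NDN and MAGEE1 also passed the fold threshold, and 16.5% of all tested genes were called higher. NDN encodes necdin, a growth-restraining protein of neurons, and is an imprinted gene expressed from the paternal copy. It had raw counts of 1, 5 and 4 in WT and 777, 704 and 709 in Delta-TRRAP. Normalized counts rose from 3.29 ± 2.01 to 733 ± 40.7 (SD, n = 3), a log2 fold change of 7.73 ± 0.18 (adjusted p = 2.02e-14, edgeR). NDN had a WT mean under 5, in the class of which 74.8% were called. Its level per kilobase of exon stood at percentile 8.69 of all tested genes in WT and 77.1 in Delta-TRRAP. How many genes of that class reached a like level was not computed. MAGEL2, the imprinted neighbour of NDN, had 1 count in all 6 libraries. MKRN3, a further imprinted gene nearby, had 565 ± 14.5 and 751 ± 53.1 normalized counts, a log2 fold change of 0.41 ± 0.07 that was not called.

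MAGEE1, which binds dystrobrevin, had raw counts of 20, 23 and 25 in WT and 51, 47 and 41 in Delta-TRRAP. The groups were apart, and the log2 fold change of 1.04 ± 0.20 was just over the threshold (adjusted p = 0.000299, edgeR). It fell to 0.96 without WT replicate 1 and to 0.97 without Delta-TRRAP replicate 1, under the threshold in both. MAGEE2 was near 3 raw counts in every library, with 4, 4 and 3 against 4, 2 and 3, and was not tested.

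The abundant type II genes changed less than 2-fold. MAGEF1, which acts with the ligase subunit NSMCE1, rose from 1674 ± 35.2 to 2733 ± 148 normalized counts (log2 fold change 0.71 ± 0.05). MAGED1, an adaptor in neurotrophin receptor signalling, rose from 2096 ± 119 to 2515 ± 127 (0.26 ± 0.06). MAGED2 had 2033 ± 61.1 and 2241 ± 112 normalized counts (0.14 ± 0.05, adjusted p = 0.0296, edgeR). MAGEH1 had 511 ± 55.4 and 495 ± 40.1, with overlapping groups and a log2 fold change of -0.05 that turned to 0.09 with scaling by library size alone. MAGED4 and MAGED4B, whose exon windows all occur elsewhere in the genome, had no counts. Only uniquely mapping reads were counted, so their level is unknown. PRAME had 13523, 13694 and 14303 normalized counts in WT and 22158, 22094 and 19968 in Delta-TRRAP. It was the most abundant member per kilobase in both groups and rose by 0.63 ± 0.06 on the log2 scale, under the fold threshold (adjusted p = 7.46e-08, edgeR).

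**Figure D4:**
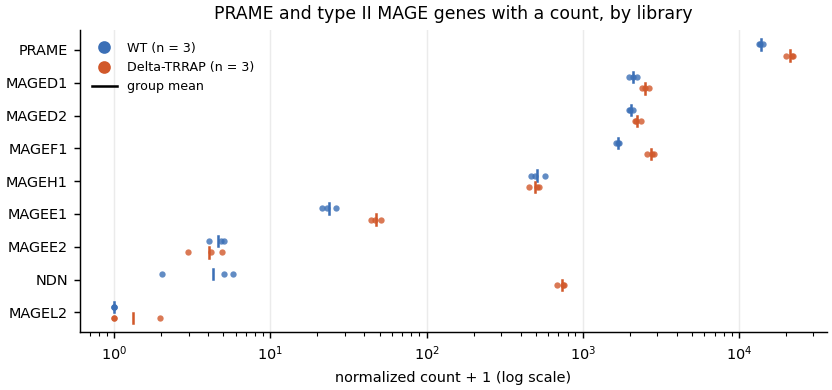
Normalized count plus 1 (log axis) of PRAME and each type II gene with a count, in the 3 WT (blue) and 3 Delta-TRRAP (orange) libraries, with vertical marks at group means. NDN moves from single counts to 733 on average, while MAGED2 and MAGEH1 stay close to their WT level.

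Over all 28 tested members, groups did not overlap for 23, all with Delta-TRRAP higher, where 71.1% of all tested genes did not overlap. This count is near that background. Of the 28 members, 19 passed an adjusted p of 0.01, all higher, against 58.3% of all tested genes in either direction.

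A pair of type II MAGE genes carries other symbols. TRO, which encodes the adhesion protein trophinin, had raw counts of 18, 34 and 25 in WT and 13, 6 and 8 in Delta-TRRAP. It went down, with a log2 fold change of -1.49 ± 0.34 (adjusted p = 0.00118, edgeR). NSMCE3 was listed at 0 in all 6 libraries. It is known as a widely expressed gene, so this 0 is not read as absence of its transcript.

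Calls differed between groups of neighbouring type I genes. The 36 X-linked members fell into 12 groups separated by gaps over 1 Mb. MAGEC3, MAGEC1 and MAGEC2, at chrX:141838316-142205290, were all called higher, and no other tested gene lay within 500 kb. MAGEC3 had a WT mean under 5 and passed the filter through the Delta-TRRAP libraries, in a class of which 74.8% were called, which leaves MAGEC1 and MAGEC2 as the calls from genes well detected in both groups. Of the 5 members from MAGEA9B to MAGEA8, at chrX:149581653-149885835, all 4 that were tested were called higher, and so were 2 of 10 other tested genes within 500 kb. The same limit holds for MAGEA11 and MAGEA9, and MAGEA9 shares nearly all its sequence with MAGEA9B, which leaves MAGEA9B and MAGEA8 as the calls from genes well detected in both groups. From MAGEA4 to MAGEA1, at chrX:151912495-153183880, none of 7 tested members was called, and 2 of 25 other genes nearby were higher and 4 lower. Positions are from GENCODE release 44 on GRCh38. The pattern was noticed in these values and was not tested.

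**Figure D5:**
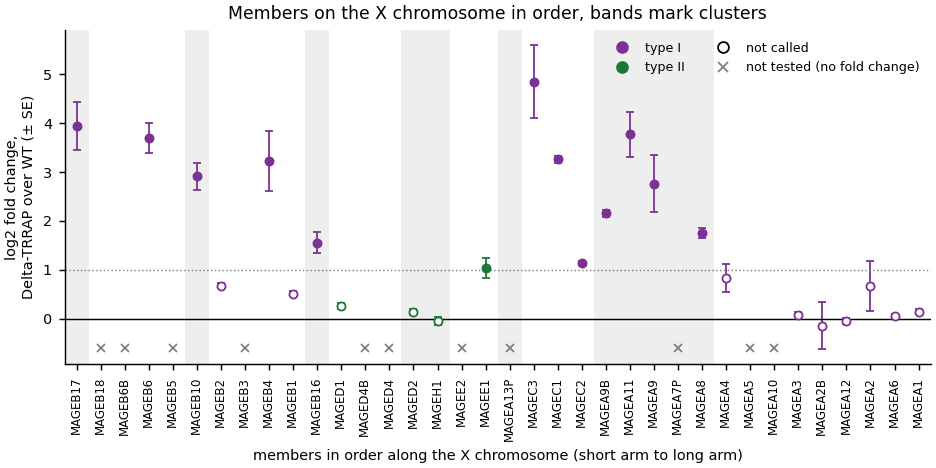
Log2 fold change (± SE) of the X-linked members in their order along the chromosome, filled where called, with crosses for members not tested and bands alternating between groups of neighbouring members. The MAGEC group and the group from MAGEA9B to MAGEA8 lie above the dotted line of a 2-fold change, and the group from MAGEA4 to MAGEA1 lies below it.

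Of 30 tested other cancer-testis genes on the X chromosome, 5 were called higher and 5 lower, against 16.5% and 6.08% of all tested genes, with a median log2 fold change of 0.19. TEX13B, at 0 in WT, had 21, 16 and 10 raw counts in Delta-TRRAP. It passed the filter through those libraries, and 74.8% of all tested genes with a WT mean under 5 were called higher. SSX3, of a family of transcriptional repressors, rose by 3.32 ± 0.15 on the log2 scale, and PAGE2B by 1.91 ± 0.08, while the helicase gene DDX53 had -2.47 ± 0.11. Of 17 tested germline genes in the list drawn up as autosomal, 4 were higher and 3 lower, against the same 16.5% and 6.08%, with a median of -0.42. TEX101 rose by 3.88 ± 0.55 from raw counts of 2, 0 and 1 in WT, under the same limit as TEX13B. LUZP4, which is in fact X-linked, rose by 3.74 ± 0.10, TEX19 by 1.93 ± 0.19, and TEX14 by 1.88 ± 0.29. The genes called lower were MOV10L1 with -1.82 ± 0.45, TEX15 with -1.36 ± 0.09 and MEIOB with -1.03 ± 0.06. Normalized counts summed over this list were 34534 to 34924 in WT libraries and 20033 to 21306 in Delta-TRRAP libraries.

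Of 37 tested genes for proteins known to act with MAGE proteins or PRAME, 2 were called higher and 1 lower, against 16.5% and 6.08% of all tested genes, with a median of -0.24. Most of the 37 had a mean of 1000 or more normalized counts, a class of which 2.41% of all tested genes were called higher. The ligase genes TRIM69 and LNX1 rose by 1.14 ± 0.26 and 1.07 ± 0.07, and UBE2D1, a ubiquitin-conjugating enzyme, had -1.05 ± 0.06. TRIM28, the ligase of MAGEC2 and MAGEA3, had -0.59 ± 0.05 and was not called. Of 19 tested DNA methylation and silencing factors, none was called higher and 2 were lower, against 16.5% and 6.08% of all tested genes. Most of the 19 also had a mean of 1000 or more, where 2.41% of all tested genes were called higher. The 2 called lower were UHRF1, which recruits the maintenance methyltransferase, with -1.30 ± 0.05, and the methyltransferase DNMT3B, with -1.16 ± 0.05. Their part in the levels of the MAGE genes was not tested.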

How the data were processed

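For each of the 6 libraries (3 WT and 3 Delta-TRRAP) the authors deposited raw counts of reads per gene. STAR alignments to hg38 with a single match were counted by HTSeq 2.0.2 in reverse-stranded union mode on an earlier GENCODE release than the one used for positions here. Discarding reads with several matches lowers the counts of near-identical genes. The deposited tables of normalized signal and of the authors' own comparison were not used. Depth was 35076835 to 42616061 counts per library. Exact intervals of count ratios and limits at 0 counts cover counting error only, while 95% intervals of log2 fold changes are from the edgeR fit and include the spread between replicates.

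Counts were tested with edgeR 4.0.16 (R 4.3.3): a minimum mean of 5 normalized counts, TMM factors computed on the tested genes, and the quasi-likelihood test with group as the only term. Thresholds follow the study, which used DESeq2. TMM factors were first computed over all genes; they were changed to the tested genes after results had been seen, and the first choice is kept as an alternative. The standard error is the size of the log2 fold change divided by the root of F. The fit was tested on simulated data. Replicates differed by more than sampling noise (chi-square per degree of freedom 4.75 to 15.9), so each counted as 1 sample. Uniqueness is the share of 50-base exon windows found once in GRCh38. Every member with a mean of 5 or more was named, and for other lists up to 4 called genes with the largest change. A few others were named for their role or after their values were seen (TFRC, MKRN3, TRIM28, MOV10L1, TEX15, MEIOB). The members and lists were chosen with earlier results of these data known. Alternatives were DESeq2 1.42.0, limma-voom (limma 3.58.1), other scalings, filters and thresholds, a replicate block and leaving out each library.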

Additional observations from a re-analysis of the deposited data

How the results depend on the processing

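No member was called lower, and no called member changed direction, under any alternative run. Scaling by library size alone moved the type II median log2 fold change to 0.62. Requiring a mean of at least 20 normalized counts left 7 type I genes called higher, with a median of 1.17, and 1980 genes called higher among all genes, since fewer genes were tested. With a fold change of 1.5, 2562 genes were called lower among all genes, and PRAME (0.63), MAGEB2 (0.68) and MAGEF1 (0.71) were called higher. Leaving out single libraries gave 9 to 12 type I and 1 to 2 type II genes called higher, partly because MAGEA9, MAGEB4 or MAGEC3 then fell under the filter. The median ran from 0.97 (without Delta-TRRAP replicate 3) to 1.62 for type I, with 1.12 without Delta-TRRAP replicate 1, and from 0.45 to 0.51 for type II. The type II count of 1 came without WT replicate 1 or Delta-TRRAP replicate 1, where MAGEE1 fell to 0.96 or 0.97. Without members of shared sequence, an alternative chosen after seeing the data, the type I median was 2.33. TMM factors over all genes, also added later, changed no member's call. The cause of these shifts was not tested where none is given.

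The replicate block left 12 type I and 2 type II genes called higher, with 3049 genes higher and 1135 lower among all genes, and changed no member's call. Deviations of libraries with the same number correlated at -0.036 to -0.011, and nothing pairs libraries that share a number.

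Depth limits the members with few reads: at 0 counts, up to 3 counts per library cannot be told from none, and 7 members with a count were not tested.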
